A study of Caenorhabditis elegans with 24 samples.

Results

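The step from the end of the third larval stage (late L3) to the start of the fourth (early L4) was followed in the cells of Caenorhabditis elegans hermaphrodites other than distal tip cells (DTCs). These cells were the Venus-negative fraction of dissociated worms whose DTCs carried the fluorescent protein Venus. All gene counts of 6 libraries were compared, 3 of late L3 and 3 of early L4, out of 24 libraries in 8 groups (DTCs and other cells, each at late L3, early L4, late L4 and adulthood). The 6 libraries were taken by their labels, and no measured value entered that choice. The added reading without late L3 replicate 3 was chosen because the measured levels of that library stood apart. Every group is wild type for genotype in the labels and was grown at 20 °C on OP50 bacteria. Other cells are thus a mixture of all tissues that did not fluoresce, so that a change in RNA may come from fewer cells of a type or from less RNA per cell, which cannot be told apart. The 3 samples of a group are not stated to come from separate cultures. P-values therefore measure the spread between samples within groups, which may be technical. That spread was estimated over all 24 libraries and not over the 6 compared alone. Polyadenylated RNA was counted per gene, and levels are given as CPM, the usual normalised read count, scaled to the effective library size, which compare libraries and not genes of different length.

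Between these stages the hermaphrodite prepares its adult form. The epidermis sheds the L3 cuticle and starts the L4 one, and each larval stage and the adult use partly different members of the large collagen family. The vulva and uterus begin to form, and the first germ cells to differentiate become sperm before the germ line turns to oocytes. Heterochronic genes, a network of small RNAs and their targets, set which stage-specific programme the epidermal cells run.

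The 6 libraries held between 16053777 and 18045720 counts, with 14 to 22.3% of them on ribosomal RNA genes and 0.947 to 4.14% on mitochondrial ones. The label of the fraction was checked with DTC genes. The 12 listed DTC genes took 0.0112 to 0.0191% of counts in other cells against 1.16 to 1.82% in DTCs of the same stages. The Notch ligand gene lag-2, which defines the DTC, reached at most 2.78 CPM in other cells and at least 167 CPM in DTCs. Defining markers of muscle (myo-3, unc-54), neurons (rab-3), intestine (elt-2), germ line (pgl-1, glh-1), oocytes (rme-2, oma-1), coelomocytes (unc-122, cup-4) and hypodermis (dpy-7) were counted in all 6 libraries. Of these, myo-3, unc-122, cup-4 and dpy-7 were above every DTC library of these stages. pgl-1, at 44.3 to 164 CPM, was below its 169 to 390 CPM in DTCs. The others overlapped DTCs, and elt-2 and rab-3 were low in other cells, at no more than 4.29 and 6.44 CPM. The second intestinal marker, the esterase gene ges-1, had no count in late L3 replicate 3. unc-119, the second neuronal marker, was at 396, 342 and 257 CPM at late L3 and 149.9, 153 and 201 CPM at early L4, below its 471 to 912 CPM in DTCs of these stages. The sperm marker msp-142 had none in late L3 replicates 1 and 2, and gsp-4, the other sperm marker, had 0 and 0.103 CPM there.

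Late L3 replicate 3 stood apart from its group. On the first 2 principal components of the 1000 most variable genes it lay at 19.2 and -62.8. Late L3 replicates 1 and 2 lay at -114.4 and -32.0 and at -107.5 and -34.3, and the early L4 libraries at 47.5 to 62.1 and -84.1 to -76.0. Over all genes tested, its log2 CPM correlated with late L3 replicates 1 and 2 at 0.755 and 0.762, and with the early L4 libraries at 0.870 to 0.883. With the late L4 libraries of other cells it correlated at 0.791 to 0.806, also above its fellow replicates. The genes tested are not independent replicates. Replicates 1 and 2 correlated at 0.935 with each other. Its stage label was kept, and the counts over all genes are given with all 6 libraries and without it.

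**Figure D1:**
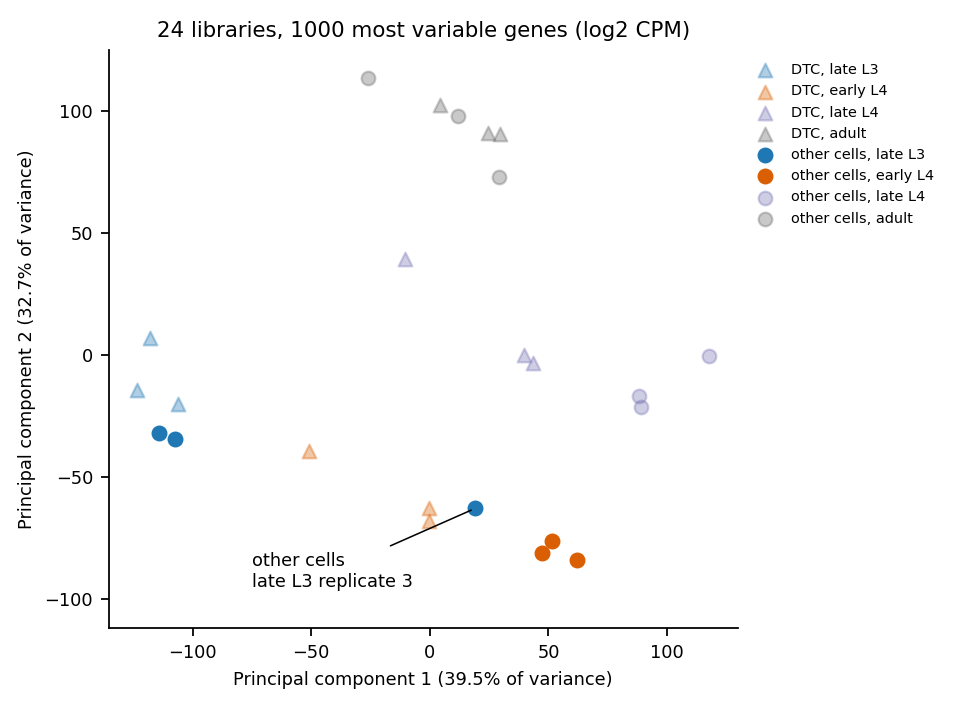
Principal components 1 (39.5% of variance) and 2 (32.7%) of log2 CPM for the 1000 most variable genes in 24 libraries. Circles are other cells, triangles are DTCs, colours are stages, and the 2 groups compared are drawn solid. Late L3 replicate 3 lies at 19.2 on component 1, between its fellow replicates at -114.4 and -107.5 and the early L4 libraries at 47.5 to 62.1.

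With all 6 libraries, 34 genes rose (0.201% of 16887 tested) and 27 fell (0.16%) from late L3 to early L4, at a Benjamini-Hochberg adjusted p under 0.05 in edgeR's quasi-likelihood test. Without late L3 replicate 3 the test called 1055 genes higher (5.96% of 17692) and 334 lower (1.89%). All 34 and all 27 genes were also called without that library, in the same direction, and made up 3.22% and 8.08% of the larger sets. Leaving out another library gave 20 higher and 4 lower (early L4 replicate 1), 24 and 6 (early L4 replicate 2), 34 and 4 (early L4 replicate 3), 12 and 3 (late L3 replicate 1) and 10 and 4 (late L3 replicate 2). The genes C35B1.4, C44B7.5, F14H12.8, F55B11.2, T04G9.7, Y45F10C.4, col-63, nas-22 and try-14 were called higher, and pha-4 and rrn-2.1 lower, in every one of these 6 fits. The split between higher and lower depended on the scaling. With RLE size factors 82.0% of calls were higher, against 55.7% with TMM, and without late L3 replicate 3 the shares were 89.3% and 76.0%. The median log2 change of all genes was -0.16 with TMM and 0.00 with RLE, and -0.21 and 0.01 without late L3 replicate 3.

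Cuticle collagens, the main proteins of the worm's outer coat, were among the genes that rose with all libraries. Of 137 tested members of the col class, 7 rose (5.11%, against 0.201% of all genes) and none fell, while the median log2 change of the class was -0.86 beside -0.16 for all genes. col-63 (chromosome I, 8243694 to 8244963 in WBcel235) had 0.114, 0 and 0.366 CPM in the late L3 libraries and 224, 148 and 238 CPM at early L4. The groups were far apart, and the rise was 10.19 ± 1.41 (log2, SE; adjusted p = 0.00160, edgeR). col-138 went from 0.171, 0.155 and 2.29 CPM to 79.2, 43.8 and 187 CPM (6.85 ± 1.43, edgeR adjusted p = 0.0416), with replicate 3 the highest of the late L3 libraries. col-181 rose by 4.71 ± 0.78 and col-119 by 5.75 ± 1.07 on the log2 scale, from at most 0.870 CPM to at least 1.31 CPM in every early L4 library. The other collagens called, named here after their values were seen, were col-140, col-124 and col-20, which rose by 4.06, 3.26 and 4.34. Reads of such a family can be split between near-identical copies, so single members are uncertain.

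Eggshell genes were also among the genes that rose. They encode the layers that enclose the fertilised egg, and were listed together with oocyte genes. Of the 29 tested genes on that list 2 rose (6.9%, against 0.201% of all genes). The list median was 1.13 beside -0.16 for all genes. perm-4, needed for the permeability barrier of the eggshell, had 0, 0.0516 and 1.88 CPM at late L3 and 34.7, 24.9 and 23.5 CPM at early L4. It rose by 5.37 ± 0.92 (edgeR adjusted p = 0.0103) and its level in other cells was 3678 ± 1074 CPM at late L4 and 8122 ± 956 CPM in adults (mean and SD, n = 3). cpg-1, a chondroitin proteoglycan of the eggshell, was present in every late L3 library at 34.5, 31.6 and 57.1 CPM and rose to 179.8, 245 and 157 CPM (2.24 ± 0.40, edgeR adjusted p = 0.0146). The transthyretin-related gene ttr-14 was the 1 called member of 55 tested in its family. It had 0, 0 and 3.62 CPM at late L3 and 118, 64.8 and 74.5 CPM at early L4 (6.11 ± 1.29, edgeR adjusted p = 0.0424).

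Several genes went from no count in any late L3 library to a measured level in all early L4 libraries, so their fold is a lower bound against a floor of 3 counts over the group. nas-22, of the astacin metalloproteases that cut extracellular proteins, had 13.7, 9.86 and 10.6 CPM at early L4, at least 224-fold higher (edgeR adjusted p = 0.00385). K02F6.3 had 51.7, 31.7 and 21.2 CPM at early L4 and was at least 685-fold higher. C35B1.4 (chromosome IV, 4079814 to 4080146) had 12.5, 3.76 and 26.2 CPM and was at least 274-fold higher (edgeR adjusted p = 0.000610). It reached 611 ± 103 CPM at late L4 and 329.6 ± 50.6 CPM in adults. C44B7.5 had 2.54, 2.54 and 2.12 CPM at early L4, at least 47.1-fold higher, and 808 ± 445 CPM in adults. For C35B1.4 and C44B7.5 the early L4 levels were a small part of the later ones. best-20, of the bestrophin anion channel family, was at least 83.3-fold higher at early L4, Y45F10C.4 at least 148-fold, F55B11.2 at least 97.4-fold, T12B5.14 at least 68.7-fold and F14H3.6 at least 46.3-fold. The pseudogene WBGene00014809 was called too. C32E12.1 had 0.0570, 0.103 and 0.0458 CPM and then 24.8, 13.6 and 24.6 CPM (8.10 ± 1.27, edgeR adjusted p = 0.00485). The trypsin-like protease gene try-14, T04G9.7 and F14H12.8, which were picked for holding in every fit, rose by 7.32, 7.13 and 4.08.

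**Figure D2:**
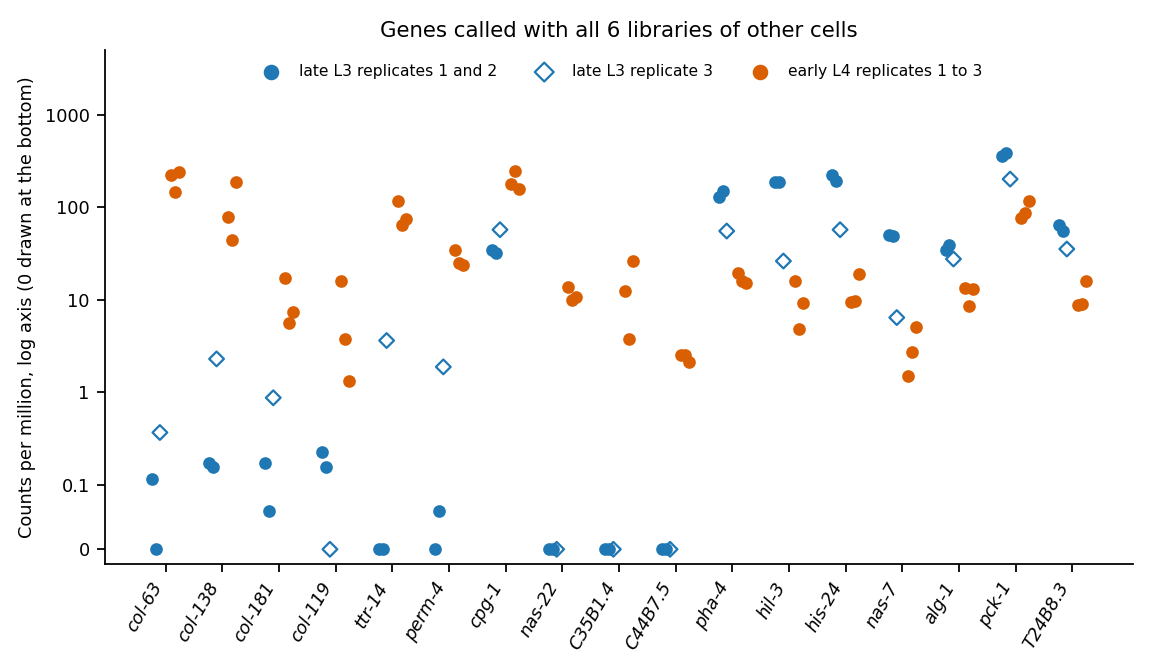
Level of 17 genes called with all 6 libraries, in CPM on a log axis with 0 drawn at the bottom. Filled blue circles are late L3 replicates 1 and 2, open diamonds late L3 replicate 3, and orange circles the early L4 replicates. Late L3 replicate 3 lies between its fellow replicates and the early L4 libraries for pha-4, hil-3 and nas-7, and at 0 for nas-22, C35B1.4 and C44B7.5.

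Among genes that fell, pha-4 had the smallest adjusted p. It encodes the FoxA transcription factor that specifies the pharynx and is also used in the gonad. pha-4 (chromosome V, 20753052 to 20760317) had 129, 150.0 and 55.3 CPM at late L3 and 19.6, 16.1 and 15.3 CPM at early L4. Replicate 3 was lowest of its group but above every early L4 library, and the change was -2.71 ± 0.32 (edgeR adjusted p = 0.000610) with it and -3.12 ± 0.28 without it. In DTCs the gene was at 637, 699 and 577 CPM at late L3 and 688, 741 and 743 CPM at early L4. pha-4 was the 1 called member of 19 tested genes of pharyngeal muscle and gland, with and without replicate 3.

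Of 8 tested linker histones, which bind the DNA between nucleosomes, 2 fell, and 3 without replicate 3. hil-3 (chromosome X, 8159169 to 8160084) had 187, 185 and 26.2 CPM at late L3 and 15.9, 4.78 and 9.18 CPM at early L4 (-3.73 ± 0.61, edgeR adjusted p = 0.00679). his-24 had 224, 190.0 and 57.1 CPM and then 9.45, 9.79 and 19 CPM (-3.62 ± 0.74, edgeR adjusted p = 0.0390). An antisense gene shares 12.9% of the exon bases of his-24. In both genes replicate 3 was far below its fellow replicates and above early L4. They were 2 of 43 tested histone genes to fall (4.65%, against 0.16% of all genes), with none higher. The median change over the histone list was -0.97, and over 8 tested linker histones -1.32.

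Other genes that fell had roles in several processes. The astacin gene nas-7, also on the molting list as its 1 called gene of 32 tested, had 49.6, 49 and 6.41 CPM and then 1.51, 2.70 and 5.02 CPM (-3.51 ± 0.75, edgeR adjusted p = 0.0430). pck-1, which encodes phosphoenolpyruvate carboxykinase, went from 359, 384 and 202 CPM to 77.1, 85.6 and 118 CPM (-1.75 ± 0.32, edgeR adjusted p = 0.0146), the 1 gene called of 25 tested on the list of glycolysis and pyruvate entry. alg-1, an Argonaute that carries microRNAs, had 34.8, 39.4 and 27.6 CPM and then 13.3, 8.53 and 13 CPM (-1.55 ± 0.29, edgeR adjusted p = 0.0213), the 1 gene called of 21 heterochronic genes. The 5.8S ribosomal RNA gene rrn-2.1 changed by -1.90 ± 0.29 on the log2 scale, from 1295, 1361 and 991 CPM to 282, 276 and 419.6 CPM. Ribosomal RNA normally lacks a poly(A) tail, and the share of counts on all ribosomal RNA genes was 15.6 to 22.3% at late L3 and 14 to 17.5% at early L4.

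lron-2, a leucine-rich repeat gene, had 22.6, 12.6 and 8.15 CPM at late L3 and 0.119, 2.51 and 0.367 CPM at early L4, and scpl-3, a phosphatase-like gene, 71.5, 72.4 and 20.2 and 5.72, 10.8 and 8.32 CPM. lron-2 was the 1 gene called of 12 tested on the DTC list, with and without replicate 3. T24B8.3, C02F12.5, F45E4.5 and Y43F8B.2 changed by -2.20, -3.34, -2.71 and -1.85. cla-1 on the other strand shares 13.2% of the exon bases of F45E4.5. Among the calls outside the rule for naming, picked here for their known roles, were both chaperonin subunit genes called, cct-1 (-0.94 ± 0.18) and cct-5 (-0.96 ± 0.19), the chromatin remodeller gene chd-7 (-1.71 ± 0.28), the kinase genes akt-2 (-1.72 ± 0.33) and mnk-1 (-1.44 ± 0.28), the G protein subunit gene gsa-1 (-1.45 ± 0.30) and the spectrin gene spc-1 (-1.30 ± 0.28). Of the 27 genes, 9 stayed called under RLE scaling (hil-3, his-24, pha-4, rrn-2.1, chd-7, mnk-1, T24B8.3, pck-1 and lron-2). The adjusted p under RLE was 0.0701 for nas-7 and 0.0590 for alg-1.

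The 1389 genes called without late L3 replicate 3 were read against that library. On a scale where 0 is the mean log2 level of late L3 replicates 1 and 2 and 1 that of early L4, its median position was 0.76 for the 1055 genes that rose, and it was nearer to early L4 for 907 of them (86.0%). For the 334 genes that fell the median was 0.52, with 173 (51.8%) nearer to early L4. Over all genes tested the share was 56.0%. The choice of genes used the other 5 libraries, so these positions describe replicate 3 and test nothing. With 2 late L3 libraries the results that follow rest on their agreement with each other. Replicate 3 was left out for measured levels that lay towards early L4, which favours calls of a difference. The p-values without it do not allow for that choice.

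Sperm genes made up the clearest group among the genes that rose without late L3 replicate 3. Of 91 tested sperm genes 66 rose (72.5%, against 5.96% of all genes), with a median log2 change of 8.41 beside -0.21 for all genes. With all 6 libraries 0 of 91 were called by edgeR and the median was 2.64, while 33 had an unadjusted p under 0.05, and DESeq2 called 5 and limma voom with quality weights 85. The 92 listed genes took 0.0177 and 0.0161% of counts in late L3 replicates 1 and 2, 0.561% in late L3 replicate 3 and 1.67, 1.16 and 1.06% in the early L4 libraries. Replicate 3 thus lay well above its fellow replicates and below every early L4 library. In other cells at late L4 the share was 1.6 to 3.7%, and in adults 0.0564 to 0.395%.

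Major sperm proteins form the cytoskeleton of crawling sperm. Without replicate 3, 28 of 30 tested msp genes rose (93.3%, against 5.96% of all genes), and with all 6 libraries none was called. Their near-identical copies share reads, so single members are uncertain. msp-36 (chromosome IV, 10095433 to 10095816) had 0, 0 and 37.2 CPM at late L3 and 69.9, 55.6 and 82.6 CPM at early L4. Without replicate 3 it was at least 851-fold higher (edgeR adjusted p = 0.000114), and with it the change was 2.48 ± 1.41 (adjusted p = 0.454). ssq-1, of a sperm-specific family, had 0, 0 and 81.6 CPM and then 319.9, 219.9 and 169 CPM, at least 2912-fold higher without replicate 3 (edgeR adjusted p = 1.12e-06). nsph-2 had 0, 0 and 31.1 CPM and then 145, 90.4 and 90.8 CPM, and nsph-3.2 0, 0.103 and 336 CPM and then 868, 604 and 561 CPM. In each of these genes replicate 3 was well above its fellow replicates and below every early L4 library. Of the smaller families, 12 of 29 tested spe genes (41.4%), 10 of 12 ssp genes (83.3%) and 9 of 9 nspd genes rose without replicate 3. With all 6 libraries no member of these families was called.

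The 12 genes named for their size of rise without replicate 3 were all at 0 in late L3 replicates 1 and 2. alg-4, an Argonaute that acts in spermatogenesis, had 0, 0 and 133 CPM at late L3 and 345, 251 and 208 CPM at early L4. gln-2, a glutamine synthetase gene, had 0, 0 and 90.7 CPM and then 426, 272 and 219 CPM, at least 3771-fold higher. pei-1, a component of paternal granules that pass to the embryo, had 0, 0 and 54.3 CPM and then 229.6, 175 and 132 CPM. D1086.10 was higher in replicate 3 (0, 0 and 401 CPM at late L3) than in any early L4 library (359, 299 and 349 CPM). The others were ttbk-8.1, a tau-tubulin kinase-like gene, the C-type lectin gene clec-123, and C15C6.2, T27E7.1, C34D4.2, D1086.17 and ZK1010.5, each at least 1966-fold higher. None of these 12 passed with all 6 libraries, with edgeR adjusted p from 0.348 for ssq-1 to 0.783 for D1086.10.

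**Figure D3:**
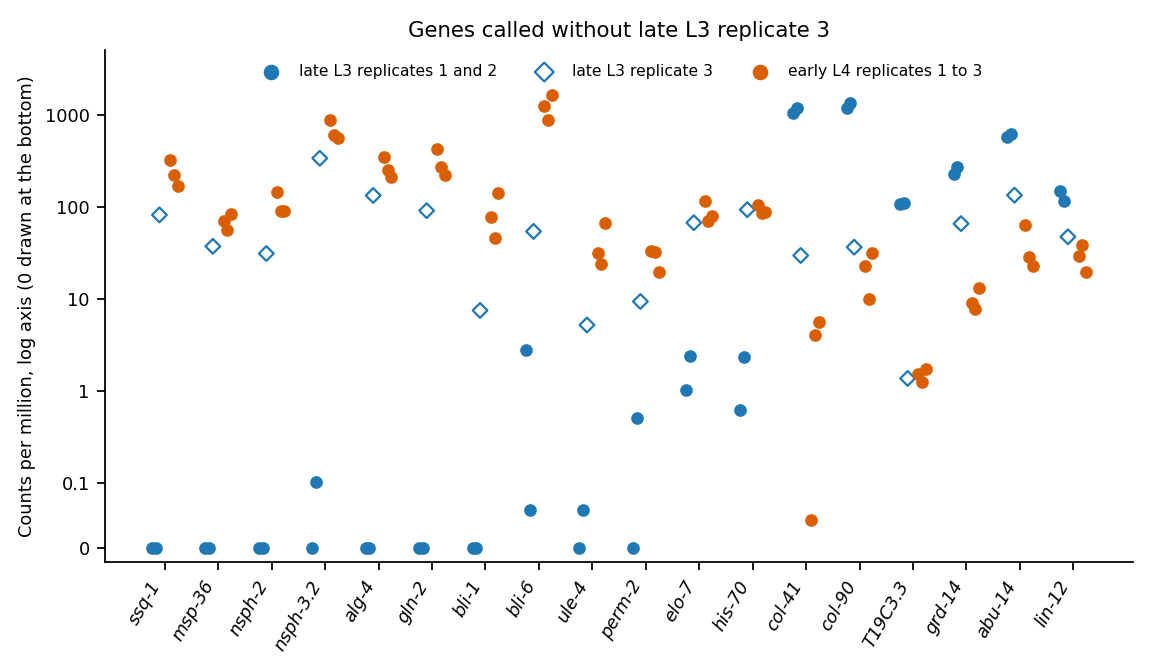
Level of 18 genes called without late L3 replicate 3, in CPM on a log axis with 0 drawn at the bottom, with symbols by library as named in the legend. For the sperm genes ssq-1, msp-36, nsph-2 and nsph-3.2, late L3 replicates 1 and 2 lie at or near 0 and replicate 3 between 31.1 and 336 CPM. For T19C3.3 and elo-7, replicate 3 lies beside the early L4 libraries.

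Oocyte and eggshell genes rose as well. Without replicate 3, 13 of 29 rose (44.8%, against 5.96% of all genes), none fell, and the median was 1.66. perm-2, which acts with perm-4 in the permeability barrier, had 0, 0.516 and 9.38 CPM at late L3 and 33.1, 32.2 and 19.7 CPM at early L4 (6.61 ± 0.87 without replicate 3, edgeR adjusted p = 0.000131). cpg-3, another eggshell proteoglycan gene, had 10.8, 10.1 and 25.7 CPM and then 126, 115 and 97 CPM (3.35 ± 0.85). nos-2, a Nanos-related regulator of germ cells, rose by 3.60 ± 0.84 from 0.342, 0.155 and 1.56 CPM to 3.50, 2.07 and 4.16 CPM, and him-14 on the other strand shares 12.4% of its exon bases. Of the separate list of 6 yolk protein genes 1 was called (16.7%, against 5.96% of all genes). This gene, vit-2, had no count at late L3 and only 0.795, 3.25 and 1.10 CPM at early L4. It was at least 21.3-fold higher without replicate 3 (edgeR adjusted p = 0.0324) and missed with all libraries (adjusted p = 0.0591).

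Of 44 genes of mitotic and meiotic germ cells 2 rose without replicate 3 (4.55%, close to the 5.96% of all genes). These were deps-1 (1.39 ± 0.37) and pgl-3 (1.24 ± 0.35), both encoding P granule proteins. The B-type cyclin genes cyb-1 (60.4, 42.4 and 78.6 CPM, then 186, 144 and 126 CPM; 1.48 ± 0.41) and cyb-2.2 (3.47 ± 0.75) were the 2 called genes of 42 on the cell cycle and replication list. That share, 4.76%, was below the 5.96% of all genes, and the list median was -0.53. his-70, an H3-type histone gene, was the 1 histone gene higher. It had 0.628, 2.37 and 93 CPM at late L3 and 104, 84.9 and 88.2 CPM at early L4 (5.85 ± 1.32, edgeR adjusted p = 0.00967). elo-7, a fatty acid elongase gene, had 1.03, 2.42 and 67.2 CPM and then 115, 69.8 and 80.0 CPM (5.59 ± 1.57). In both, replicate 3 was at the early L4 level.

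Collagens moved in both directions once replicate 3 was left out. In the col class 12.7% of the genes tested rose (18 genes) and 2.82% fell (4 genes), against 5.96% and 1.89% of all genes. col-175 had 0.114, 0.103 and 3.89 CPM at late L3 and 309, 172 and 503 CPM at early L4 (11.38 ± 2.58, edgeR adjusted p = 0.00992), and col-60 0, 0.0516 and 0.183 CPM and then 14, 9.98 and 23.6 CPM. col-41 went the other way, from 1043, 1172 and 29.6 CPM to 0.0397, 4.07 and 5.59 CPM (-8.49 ± 1.87, edgeR adjusted p = 0.00810), as did col-90, from 1169, 1334 and 36.4 CPM to 23, 9.94 and 31.2 CPM (-5.94 ± 1.33). The other members lower were col-65 (-4.36 ± 1.27; adjusted p under RLE 0.0591) and col-166 (-2.30 ± 0.56), named after their values were seen. Replicate 3 was above every early L4 library for col-41 and col-90 and far below its fellow replicates. Of 20 collagens named for body shape or blisters 2 rose without replicate 3. bli-1, whose product builds the struts of the adult cuticle, had 0, 0 and 7.51 CPM and then 78.1, 46.3 and 141.5 CPM, at least 1083-fold higher. bli-6 had 2.80, 0.0516 and 54 CPM and then 1232, 882 and 1625 CPM (9.71 ± 1.51, edgeR adjusted p = 0.000531), and with all 6 libraries its adjusted p was 0.0638.

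The summed share of these 20 collagens did not follow the order of the single genes. It was 2.34 and 2.53% of counts in late L3 replicates 1 and 2, 0.154% in replicate 3 and 0.757 to 1.66% at early L4, so replicate 3 lay below every other library here. The hedgehog-related and patched-related list took 0.405, 0.442 and 0.159% at late L3 and 0.151 to 0.311% at early L4. The flp and nlp neuropeptide list took 0.185, 0.165 and 0.0531% and then 0.0849 to 0.14%. For the body wall muscle list replicate 3 was the highest, with 4.27, 4.59 and 5.2% at late L3 and 3.4 to 3.94% at early L4. The part of cell composition in the changes of single genes was not tested.

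**Figure D4:**
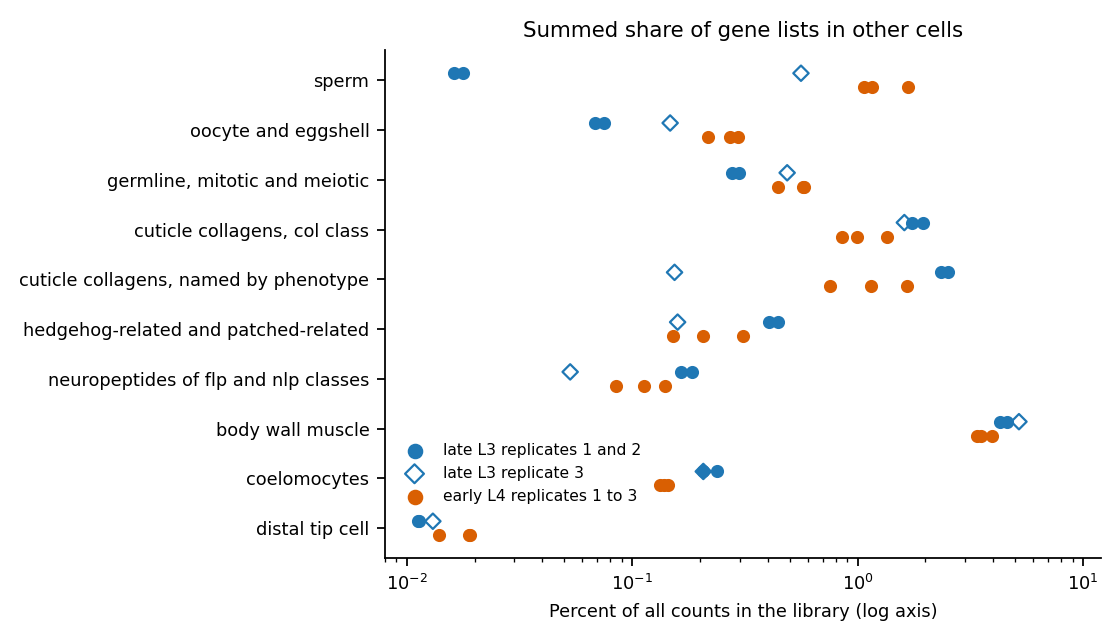
Percent of all counts in a library taken by 10 gene lists, on a log axis. Filled blue circles are late L3 replicates 1 and 2, open diamonds late L3 replicate 3 and orange circles early L4. For sperm genes replicate 3 (0.561%) lies between its fellow replicates and early L4, and for collagens named by phenotype (0.154%) it lies below all other libraries.

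Genes of the uterus and of secreted proteins gave further calls without replicate 3. ule-4 and ule-2, named for expression in the uterine lumen, were the 2 called of 20 tested genes of gonadal sheath, spermatheca and uterus. That share was 10%, against 5.96% of all genes, and the list median was -0.24 beside -0.21, so the list as a whole did not rise. ule-4 had 0, 0.0516 and 5.22 CPM at late L3 and 31.6, 24.1 and 67.5 CPM at early L4, a count ratio without replicate 3 of 1504 (95% interval 269.7 to 59413) (edgeR adjusted p = 2.85e-05). ule-2 had 0, 0 and 5.40 CPM and then 7.55, 3.05 and 10.5 CPM, with replicate 3 inside the early L4 range. Of 144 C-type lectin genes 8 rose (5.56%, close to the background) and none fell, among them clec-151, clec-175 and clec-260. Of 56 transthyretin-like genes 4 rose (7.14%, close to the background), ttr-14, ttr-34, ttr-9 and ttr-50, and 1 fell, ttr-48 (-1.63 ± 0.44; adjusted p under RLE 0.0640), named after its value was seen. ttr-34 had 0.0570, 0.155 and 14 CPM and then 59, 29.4 and 55.4 CPM (8.61 ± 1.24). On the list of endoplasmic reticulum folding, hsp-4, the chaperone BiP, had 127, 174 and 399 CPM and then 738, 588 and 471 CPM (1.91 ± 0.44, edgeR adjusted p = 0.0106). The disulfide isomerase gene pdi-1 rose by 0.85 ± 0.24, and dnj-7, a DnaJ-type cochaperone gene, changed by -1.20 ± 0.34, a call lost under RLE (adjusted p = 0.102). The small heat shock gene hsp-12.3 fell to 8.94, 17.4 and 17.2 CPM from 60.1, 57.3 and 58.8 CPM (-2.09 ± 0.52).

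Genes named for the size of their fall without replicate 3 were partly secreted or cuticle-related. grl-6, hedgehog-related, had 26.1, 23.8 and 0 CPM at late L3 and no count at early L4, at least 625-fold lower. grd-14, of the same superfamily, had 224, 267 and 65.6 CPM and then 9.06, 7.83 and 13 CPM (-4.70 ± 1.29); these were the 2 called of 75 tested in that list (2.67%, against 1.89%). T19C3.3 had 106, 109 and 1.37 CPM and then 1.55, 1.25 and 1.75 CPM (-6.21 ± 1.25), with replicate 3 inside the early L4 range. idpp-12 had 17, 14.5 and 22.7 CPM and then 0.159, 0 and 0 CPM, with replicate 3 the highest library. idpc-3, idpc-5 and idpc-6, which lie close together on chromosome V, changed by -5.09, -6.07 and -5.68. T06E4.7 on the other strand shares 28.2% of the exon bases of idpc-3. dao-6, K09C8.9, Y47D7A.13 and the unnamed WBGene00022383 completed the 12. abu-14, of a family with products in the pharyngeal cuticle, had 565, 623 and 133 CPM and then 63.6, 28.7 and 22.8 CPM (-4.03 ± 0.94), and abu-6 went from 2.57, 2.01 and 2.84 CPM to 0. pqn-84 of the same list was the 1 higher of 61, at least 213-fold. The cuticlin-like gene cutl-5 (-4.79 ± 1.44) and myrf-2, of a family of membrane-bound transcription factors (-2.26 ± 0.48), were called on the matrix and molting lists. The calls on grl-6, idpc-6, Y47D7A.13, cutl-5 and abu-6 were lost under RLE scaling, with adjusted p of 0.0539 for abu-6 to 0.0653 for cutl-5.

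Of the timing genes, 5 of 21 fell without replicate 3 (23.8%, against 1.89% of all genes) and none rose, with a list median of -1.09. alg-1 and alg-2 are the paired microRNA Argonautes, and alg-2 had 50.1, 65.6 and 46.2 CPM at late L3 and 21.4, 21.3 and 20.7 CPM at early L4 (-1.53 ± 0.40; under RLE the adjusted p was 0.0667). kin-20, a casein kinase gene, had 78.3, 68.9 and 19.2 CPM and then 21.5, 13.2 and 21.1 CPM (-2.06 ± 0.41, edgeR adjusted p = 0.00404). lep-5, a long non-coding RNA of the pathway, had 345, 284 and 115 CPM and then 73.5, 98.8 and 170.0 CPM (-1.54 ± 0.35). lin-66, named after its value was seen, was the last of the 5 (-1.09 ± 0.33; adjusted p under RLE 0.136). The following core timing genes did not pass in either test. lin-14 had 9.30, 5.26 and 3.39 CPM and then 2.58, 1.57 and 2.94 CPM, lin-28 1.88, 1.03 and 4.67 and 0.238, 1.96 and 2 CPM, and lin-41 87.7, 65.3 and 53.6 and 64.2, 56.1 and 28.1 CPM. Their ranges overlap between groups for lin-28 and lin-41. lin-29, whose product ends the larval programme, had 59.6, 48.1 and 17.3 CPM and then 17, 16.4 and 20.8 CPM, and hbl-1 22.8, 6.60 and 5.72 and 4.21, 4.97 and 1.35 CPM. mab-10, a cofactor of lin-29, had 4.68, 1.75 and 22.4 CPM and then 10.8, 11.2 and 12.7 CPM, with replicate 3 the highest of the 6. daf-12, a steroid hormone receptor gene, had 22.8, 27.6 and 17 and 14, 11 and 11.4 CPM, and the period-like gene lin-42 34.9, 29.3 and 17.7 and 21.8, 20.0 and 43.4 CPM.

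Regulators of the epidermis, vulva and germ line were mostly within their spread. The molting cycle receptor genes nhr-23 and nhr-25 had 54.1, 40.9 and 106 and 23.7, 24.9 and 1.83 CPM at late L3 and 78.1, 69.6 and 74 and 3.18, 1.76 and 1.39 CPM at early L4, respectively. For nhr-25, replicate 3 was at the early L4 level, and the change without it was -3.60 ± 1.45 (edgeR adjusted p = 0.155). blmp-1 had 6.45, 5.88 and 5.54 and 3.06, 3.29 and 14.2 CPM, and the hypodermal factor gene elt-3 12.5, 5.88 and 7.46 and 10.2, 6.73 and 5.83 CPM. The bZIP factor gene zip-2, the 1 called of 17 genes tested on the list of epidermal and seam regulators, changed by -1.36 ± 0.29 without replicate 3. lin-12, the Notch receptor of vulval and gonadal cell choices, had 147, 116 and 47.2 CPM and then 29.6, 38.8 and 19.7 CPM. It changed by -2.25 ± 0.67 without replicate 3 (edgeR adjusted p = 0.0447), a call lost under RLE scaling (adjusted p = 0.0859). lin-45, the Raf kinase gene, changed by -1.03 ± 0.28 with an adjusted p of 0.0872 under RLE, and no other vulval gene of 27 was called. egl-17 had 8.56, 2.63 and 0.595 and 0.318, 0.470 and 2.12 CPM, the EGF-like gene lin-3 1.77, 7.27 and 8.65 and 9.53, 11.8 and 9.26 CPM, and cki-1 12.6, 6.08 and 14.5 and 10.01, 9.47 and 6.04 CPM. The germ line Notch receptor gene glp-1 was at 46.1, 56.4 and 39.2 CPM and then 50.9, 43.4 and 44.8 CPM, with overlapping groups. The DTC genes lag-2 and hlh-12 stayed at or below 2.78 and 0.458 CPM.

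The remaining lists gave few calls without replicate 3, and those on the lower side were mostly lost under RLE scaling. Of 220 nuclear hormone receptor genes 6 were lower (2.73%, against 1.89% of all genes), among them nhr-107, nhr-162, nhr-183 and nhr-94, and under RLE none was called. Of 80 cytosolic ribosomal protein genes rpl-11.2, rpl-12 and rps-4 were lower (3.75%) and rpl-42 higher (1.25%), and under RLE the lower ones were not called. rpl-42 had 0.0570, 0 and 4.81 CPM and then 22.2, 11.7 and 7.55 CPM. Of 42 oxidative phosphorylation genes asb-2, sdha-1 and ucr-2.2 were lower (7.14%), and ucr-2.3, a complex III subunit gene, higher (28.4, 31 and 71.6 CPM, then 70.0, 73.1 and 47.1 CPM; 1.01 ± 0.28). Under RLE the 3 lower ones were not called. Of 25 glycolysis genes pck-1, aldo-1 and pfk-1.1 were lower (12%), and under RLE only pck-1. The same loss held for act-4 and unc-97 among 30 muscle genes, for unc-119 among 42 neuronal genes and for hil-2 among the histones, of which 6 of 46 were lower with TMM and 3 with RLE. The calls on cle-1, a type XVIII collagen gene of the basement membrane (289.5, 311 and 31.1 CPM, then 41.1, 25.5 and 37.4 CPM; -3.19 ± 0.79), on the antimicrobial-type gene fipr-13, and on the proton pump gene vha-18 (12.6, 13.9 and 51 CPM, then 91.9, 114 and 78.5 CPM; 2.76 ± 0.51) held under RLE. Of 97 neuropeptide genes nlp-4 was higher (6.52 ± 1.41) and nlp-40 lower (-1.63 ± 0.45; adjusted p under RLE 0.0775). No gene was called, without replicate 3, among 29 intestinal, 39 ciliated neuron, 31 insulin-like, 11 glial, 7 coelomocyte, 17 excretory, 13 mesoderm and sex muscle, 17 collagen-processing, 31 proteasome and 27 transport genes. In each of these lists 0 to 4 genes had an unadjusted p under 0.05 in edgeR's test.

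The calls without replicate 3 were unevenly spread over chromosomes. The X chromosome held 14% of genes tested but 31 of the 1055 that rose (2.94%) and 92 of the 334 that fell (27.5%). Chromosome IV held 16.6% of genes tested and 298 of those that rose (28.2%). Thus 1.25% of tested X genes rose and 3.71% fell, against 10.1% and 1.56% on chromosome IV. With all 6 libraries 7 of 34 higher and 8 of 27 lower genes were on X, which held 14.1% of tested genes. These are descriptions, since neighbouring genes are not independent.

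**Figure D5:**
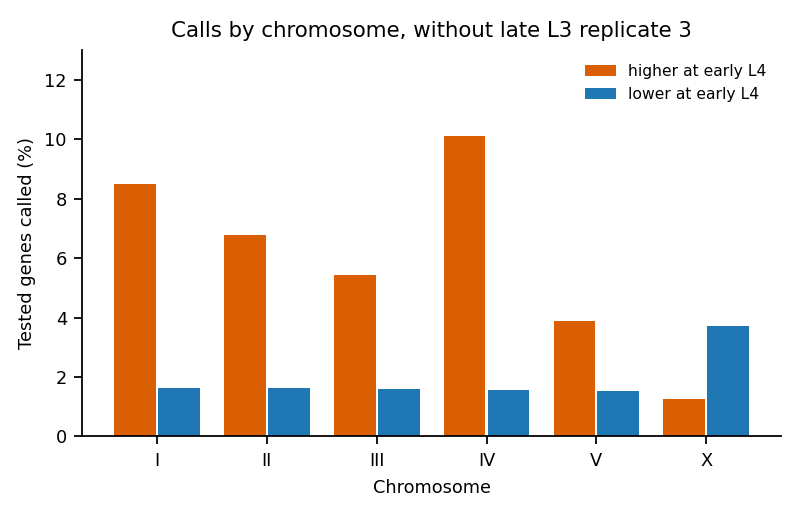
Percent of tested genes on each chromosome called higher (orange) or lower (blue) at early L4 without late L3 replicate 3. The bars for higher genes run from 1.25% on X to 10.1% on IV, and X has the tallest bar for lower genes at 3.71%.

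The same step was compared with that in DTCs. In DTCs 302 genes rose (1.79% of 16887) and 36 fell (0.213%). The difference between the steps passed edgeR's test for 84 genes (0.497%), 10 with a higher (0.0592%) and 74 with a lower change (0.438%) in other cells. Without other cells late L3 replicate 3 it passed for 193 genes (1.09% of 17692), 42 higher (0.237%) and 151 lower (0.853%). pha-4 changed by 0.18 ± 0.30 in DTCs (adjusted p = 0.804) and the difference was -2.90 ± 0.44 (edgeR adjusted p = 0.00565). nas-7 went from 11.1, 17.8 and 20.2 CPM to 101, 88.2 and 141 CPM in DTCs, and the difference was -6.26 ± 1.03 (edgeR adjusted p = 0.0106). lep-5 rose in DTCs from 180.0, 112 and 156 CPM to 634, 556 and 669 CPM (2.05 ± 0.38, adjusted p = 0.0132), a difference of -3.17 ± 0.53 (edgeR adjusted p = 0.0116). In DTCs the early L4 and late L3 values of pha-4 overlapped, while those of nas-7 and lep-5 were all higher at early L4. Without DTC late L3 replicate 1 the difference of nas-7 no longer passed (adjusted p = 0.0545). For the linker histones hil-3 and his-24 the difference did not pass with all libraries and passed without replicate 3 (-3.51 and -4.11; edgeR adjusted p = 0.0120 and 0.0388). Sperm genes rose for 29 of 91 in DTCs, where their share went from 0.0395 to 0.0445% of counts up to 0.134 to 0.351%, and the difference passed for none of the 91 with all libraries in edgeR's test. For 30 of them its unadjusted p was under 0.05, and DESeq2 called it for 11. Without other cells late L3 replicate 3 it passed for 3 of 91, all with a higher change in other cells, ssq-1 among them (edgeR adjusted p = 2.41e-05). The median difference over the sperm list was -3.16 with all libraries and 2.29 without that library. Its direction thus depended on other cells late L3 replicate 3. The collagen col-63 rose in DTCs too, from 0, 1.48 and 0.805 CPM to 46.7, 47 and 44.6 CPM (5.94 ± 1.16, adjusted p = 0.0178), and its difference did not pass (edgeR adjusted p = 0.252). Late L3 replicate 3 was also low in DTCs for some genes, picked here after their values were seen. col-90 was at 173, 376 and 0.134 CPM and grd-14 at 75, 75.4 and 0.536 CPM in the 3 late L3 DTC libraries. On principal component 1 DTC late L3 replicate 3 lay with its fellow replicates, at -117.9 beside -123.4 and -106.1. On component 2 it lay at 7.17, against -14.1 and -20.1. The share of sperm genes was low in all 3 of these DTC libraries, as given above. Across genes, the deviation of late L3 replicate 3 from the group mean correlated at 0.248 between DTCs and other cells, and genes are not independent replicates.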

How the data were processed

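Polyadenylated RNA was measured in 24 libraries of wild-type hermaphrodites. The authors deposited 1 table of raw read counts per gene. Per the submitters' processing notes, FastQC, cutadapt, Bowtie2 and HTSeq and the ce11 build were used; their versions and the strand setting were not given in these sources, so reads of overlapping genes on opposite strands cannot be told apart. Per the labels' protocols, RNA came from 30000 to 60000 cells, and 1 ng of cDNA entered the Nextera XT library kit. Of 46778 gene IDs, 43818 had a symbol and 46603 were found in Ensembl's WBcel235 annotation (the ce11 assembly), the source of the positions printed.

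From the counts, filterByExpr with the 8 groups kept 16887 genes (17692 without late L3 replicate 3), which were scaled by TMM and fitted with 8 group means over all 24 libraries by edgeR 4.0.16 in R 4.3.3. The libraries outside the comparison add to the shared estimate of spread. P-values were adjusted by Benjamini-Hochberg over all genes tested, with a threshold of 0.05, and the SE of a log2 change was its size divided by the square root of F. The script was tested on simulated data. Fold bounds use a floor of 3 counts over a group and intervals are exact at 95%; both cover counting error only, as do the precision limits set by depth. The text names the 12 called genes with the largest change in each direction and separate libraries, with all libraries and without replicate 3 (there with a mean of at least 5 CPM), up to 4 called members of each of 44 gene lists in each fit, and 20 regulators whatever their values; exceptions are stated. Of the listed entries, 26 matched no symbol. The members and lists were chosen with earlier results of these data known. Alternatives were RLE scaling, no filter, a fit of the compared libraries alone, DESeq2 1.42.0, limma 3.58.1 (voom with quality weights), a replicate term, a block shared by DTCs and other cells of the same stage and number, and leaving out each library.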

Additional observations from a re-analysis of the deposited data

Results flagged for a closer look

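For 10 of the genes named above, the change from late L3 to early L4 differed between other cells and DTCs in edgeR's test of the difference itself (log2 change in other cells minus that in DTCs, with SE). Most genes were named for their change in other cells, which is part of this difference, so the naming favoured such calls. Over all genes the difference passed for 84 of 16887 (0.497%). These are differences between changes and not between levels. The change was lower in other cells than in DTCs for pha-4 (-2.90 ± 0.44, edgeR adjusted p = 0.00565), nas-7 (-6.26 ± 1.03, 0.0106), lep-5 (-3.17 ± 0.53, 0.0116) and F45E4.5 (-3.76 ± 0.78, 0.0362). It was also lower for gsa-1 (-2.45 ± 0.42, 0.0144), T24B8.3 (-2.29 ± 0.49, 0.0392), dnj-7 (-2.17 ± 0.45, 0.0366) and unc-97 (-2.16 ± 0.48, 0.0464). lep-5, dnj-7 and unc-97 were not called in other cells with all 6 libraries. T24B8.3 in DTCs had 41.5, 32.1 and 46.1 CPM and then 44.8, 36 and 46.6 CPM. dnj-7 had 119.7, 131 and 262 CPM and then 382, 359 and 479.6 CPM in DTCs. The change was higher in other cells for F14H3.6 (10.28 ± 2.05, 0.0350) and try-14 (7.09 ± 1.36, 0.0259). Each had almost no counts in 1 or more groups, so these fitted sizes are no measure of fold. All 10 differences kept their direction when 1 library was left out. Without other cells late L3 replicate 3 all 10 stayed under an adjusted p of 0.05, but without another library 1 to 8 of them did not, the most (8) without DTC late L3 replicate 1.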

How the results depend on the processing

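The counts of genes that rose and fell (34 and 27 with all libraries) depended on nearly every choice. They were 368 and 188 with DESeq2, 2511 and 2264 with limma voom and quality weights, 109 and 50 with no filter, and 41 and 9 with RLE scaling. A fit of only the 6 libraries compared called 2 and 0 (C32E12.1 and Y43D4A.5, with 2544 genes at an unadjusted p under 0.05). Leaving out 1 library gave 10 to 1055 higher and 3 to 334 lower. Without late L3 replicate 3, RLE gave 1150 and 138 and a fit of those 2 groups 2372 and 974. RLE then shared 1054 of the 1055 higher and 138 of the 334 lower calls. limma's weight for replicate 3 was 0.260, against 1.70 and 1.73 for its fellow replicates. The difference between steps (84 genes) came to 630 genes with DESeq2, 149 with no filter, 41 with the replicate block and 13 to 193 with 1 library left out, the lowest without DTC late L3 replicate 1 (without DTC late L3 replicate 3 it was 169). The causes were not tested.

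Same-numbered libraries deviated from their group means with correlations of -0.126, 0.01 and -0.138, and the replicate block gave 25 higher and 13 lower genes. DTCs and other cells of the same number deviated together at late L3 (0.160, 0.115 and 0.248) and less at early L4 (0.109, 0.028 and 0.035). Unlike-numbered pairs of replicates 1 and 2 did so too at late L3 (0.091 and 0.162), so these values show no pairing by number for them. Pairs of replicate 3 with replicate 1 or 2 ran from -0.208 to -0.133. At early L4 unlike-numbered pairs ran from -0.079 to 0.040. A replicate block within each stage, shared by both cell fractions and added after seeing the data, called the difference between steps for 18 genes, and for 180 without other cells late L3 replicate 3. In that block with all libraries pha-4 (adjusted p = 0.0495) and try-14 (0.0495) stayed called of the 10 named differences, and 8 did not, among them lep-5 (0.0517) and nas-7 (0.0621).

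Direction changed only among genes that were not called. lin-28 came to 0.12 and 0.18 without replicate 3 under RLE and in the fit of 2 groups, and cki-1 to 0.049 and 0.087. lin-42 was -0.29 and blmp-1 -0.41 with voom, and blmp-1 -0.072 with the block. glp-1 was 0.16 with DESeq2 and RLE, 0.040 and 0.083 without replicate 3 under RLE and in 2 groups, 0.063 in 6 libraries and 0.023 with the block. hlh-12 was 0.038, 0.031, 0.88, 0.94, 0.18 and 0.11 with DESeq2, RLE, RLE without replicate 3, 2 groups without it, voom and the block. With 1 library left out the ranges were lin-41 -0.80 to 0.070, lin-42 -0.25 to 0.27, mab-10 -0.23 to 1.77, blmp-1 -0.65 to 0.48, nhr-23 -0.11 to 0.56, elt-3 -0.54 to 0.24, glp-1 -0.22 to 0.26, cki-1 -0.67 to 0.068, lag-2 -1.23 to 0.78 and hlh-12 -0.87 to 0.66. Depth limits genes near 0 CPM, such as hlh-12 in other cells.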
